A study of Mus musculus with 35 samples.

Results

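Double positive (DP) thymocytes of Mettl3 knockout mice were compared with DP thymocytes of wild-type mice of the same age, a second control beside the heterozygous genotype that the labels call WT. The comparison takes 10 of the 35 libraries of the series, the 5 KO DP libraries and the 5 young DP libraries, chosen by their labels alone. The KO DP mice were 10 weeks old and carried Mettl3flox/flox; Cd4Cre, with both Mettl3 alleles floxed. The WT DP mice, given alongside throughout, were of the same age and carried Mettl3flox/wt; Cd4Cre, with 1 floxed allele and the same Cre. The young DP mice were also 10 weeks old and are labelled wild type, with no floxed allele or Cre named. Cd4Cre is a transgene that removes floxed sequence in cells with an active Cd4 promoter. KO DP and young DP libraries therefore differ in the transgene and in the floxed alleles as well as in the Mettl3 genotype. Whether the wild-type mice shared housing, litter or substrain with the Cd4Cre mice is not given in the sources used here. The assay was bulk RNA-seq of flow-sorted live thymocytes, and the values are read counts per gene.

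METTL3 is the enzyme that, with its partner METTL14, places N6-methyladenosine (m6A) on RNA. Erasers such as ALKBH5 remove the mark, and reader proteins bind it and change the stability or translation of the transcript. DP cells carry both CD4 and CD8, rearrange the T cell receptor alpha gene with the RAG recombinase, and then either die or mature after positive selection into single positive cells.

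The KO DP libraries held 12391908 to 15462621 counts, the WT DP libraries 13018069 to 14893173 and the young DP libraries 13443375 to 15903839. KO DP 2 was the shallowest library and detected 12306 genes, while its group's other members detected 16042 to 19656. The count of genes called, in all and for some lists, is therefore also given without it. Values of single genes include it. Xist, the RNA that coats the inactive X chromosome of females, stood at 2449, 912, 1.08, 648 and 4.39 CPM (read counts scaled to a common library size after TMM) in KO DP 1 to 5. It stood at 2514, 2386, 0.203, 0.735 and 0.39 CPM in WT DP 1 to 5, and between 2103 and 3220 CPM in all young DP libraries. The young group was thus uniformly high in Xist while the other groups were mixed, with KO DP 2 and 4 at a level between the high and the low libraries. The labels do not say that the 5 libraries of a group are separate animals, so a p-value here measures the spread among libraries, which may be technical. No pair of libraries agreed within counting noise. In bulk RNA, fewer cells of a type and less RNA per cell cannot be told apart.

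Mettl3 itself (MGP_C57BL6NJ_G0021696, chromosome 14, minus strand in the deposited table) stood at 49.9, 60.9, 49.7, 51.5 and 47.8 CPM in KO DP 1 to 5, at 49.99, 44.1, 53.4, 52.7 and 51.1 CPM in WT DP, and at 53.8, 57.02, 52.1, 44.2 and 54.7 CPM in young DP. The 3 ranges overlapped (log2 KO over young -0.00, SE 0.11, edgeR quasi-likelihood adjusted p = 0.991). The labels do not name the deleted exons, and a whole-gene count includes reads that lie elsewhere in the gene, so it checks nothing about the deletion. The genes of the DP surface markers, Cd4, Cd8a and Cd8b1, were high in all groups. Cd4 averaged 1667 ± 299 CPM in KO DP, 1880 ± 264 in WT DP and 1825 ± 67.8 in young DP, and Cd8b1 averaged 1584 ± 210, 1605 ± 99.1 and 1532 ± 163 CPM in the same groups (SD, n = 5 each). Neither gene passed the test, with adjusted p-values of 0.522 for Cd4 and 0.77 for Cd8b1.

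KO DP cells differed from young DP cells in 1800 of 13225 genes tested (13.6%), 1004 of them higher (7.59%) and 796 lower (6.02%), at a Benjamini-Hochberg adjusted p under 0.05. The values of the groups did not overlap in 2153 of the genes tested (16.3%). The rises were the larger changes. Of the genes called, 384 were at least 2-fold higher and 66 at least 2-fold lower, and the median log2 change was 0.79 among rises and -0.55 among falls. The genes that rose most included class II antigen presentation genes and B cell markers, and H2-K1, Irf1 and Gimap3 of the antigen presentation, interferon and Gimap lists rose too. Among the falls were the RNA-binding protein gene Igf2bp3, the phosphodiesterase gene Pde3b and the recombinase genes Rag1 and Rag2. The count turned on single libraries. Leaving out KO DP 2 raised it to 3143 (1684 rises and 1459 falls). Leaving out KO DP 4 lowered it to 1029, and leaving out young DP 2, 3, 4 or 5 lowered it to 1058, 1021, 870 or 1118. With log Xist as a covariate 1090 genes were called, and DESeq2 called 2768.

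The WT DP libraries give a scale for these numbers. Over the same young libraries, WT DP differed in 77 of 13083 genes tested (0.589%), 30 higher (0.229%) and 47 lower (0.359%). KO DP differed from WT DP in 211 of 13233 genes tested (1.59%), 196 higher and 15 lower. The 3 comparisons share libraries in pairs, so their counts are not independent. Against WT and young DP together, 2324 of 13729 genes were called (16.9%), 1350 higher (9.83%) and 974 lower (7.09%). In 351 of the rises every KO DP library stood above all 10 control libraries, and in 160 of the falls every one stood below. Over all genes tested, called or not, 534 (3.89%) had KO DP values that overlapped no control library.

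The largest rises were genes of B cells and secreted immune proteins. Serpina3g, a serine protease inhibitor, stood at 21.3, 7.43, 11.7, 13.1 and 8.01 CPM in KO DP 1 to 5, at 0.072 to 0.368 CPM in WT DP and at 0.204, 0, 0.211, 0.0662 and 0.337 CPM in young DP. The lowest KO DP library was far above the highest control (log2 6.14, SE 0.53, adjusted p = 4.39e-05). Cd22, an inhibitory lectin of B cells, stood at 50.5, 3.53, 35.7, 30.4 and 21.2 CPM in KO DP, against a highest value of 2.84 CPM in WT DP and of 0.272 CPM in young DP (log2 7.59, adjusted p = 0.000133). KO DP 2 was the lowest KO library for this gene and lay close to the highest WT library. Ms4a1, which encodes CD20, averaged 16.9 ± 9.69 CPM in KO DP, 0.902 ± 0.433 in WT DP and 0.26 ± 0.249 in young DP (log2 5.97, adjusted p = 0.000345). Siglecg and the B cell adaptor gene Bank1 rose by log2 6.002 and 6.001, and Slpi, a protease inhibitor of secretions and leukocytes, by log2 6.68. For Bank1, KO DP 2 at 1.43 CPM lay below 1 WT DP library at 1.55 CPM. Serpina3g, Cd22, Ms4a1, Siglecg, Bank1 and Slpi passed the filter on low counts only with the KO DP libraries, the group where they were high. Their fold changes and p-values are therefore descriptive.

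Immunoglobulin constant genes rose as well. Ighg1 had 0 counts in all young DP libraries and stood at 72.0, 87.4, 31.9, 224 and 379 CPM in KO DP and between 0 and 0.338 CPM in WT DP. Against a floor of 3 counts over the young group, 0.0401 CPM, KO DP was at least 3957-fold higher, a bound that sets a TMM-scaled mean of 159 CPM against an unscaled floor (adjusted p = 0.000886). Ighg1 also passed the filter on low counts only with KO DP, so its p-value is descriptive. Ighg2c averaged 74.0 ± 26.2 CPM in KO DP, 4.67 ± 4.73 in WT DP and 0.914 ± 1.26 in young DP (log2 6.30, adjusted p = 0.000133). Igkc, the kappa light chain constant gene, averaged 143 ± 39.5 CPM in KO DP, 12.4 ± 3.95 in WT DP and 6.62 ± 2.37 in young DP (log2 4.44, SE 0.26, adjusted p = 1.09e-06). Immunoglobulin genes share reads with near-identical copies, so their separate values are uncertain.

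The rises with the smallest p-values were class II genes, whose products present peptides to CD4 T cells, together with B cell markers described further on. H2-Aa stood at 96.7, 42.9, 64.9, 61.0 and 44.8 CPM in KO DP, at 3.53, 11.5, 4.81, 8.01 and 3.59 CPM in WT DP and at 3.4, 3.5, 2.81, 3.31 and 3.9 CPM in young DP (log2 4.20, SE 0.23, adjusted p = 1.09e-06). The groups did not overlap, and the lowest KO DP value came from KO DP 2. H2-Eb1, H2-Ab1 and Cd74, the invariant chain that escorts class II molecules, rose by log2 4.20, 3.41 and 4.21. Ciita, the activator of class II genes, averaged 18.3 CPM in KO DP, 2.45 in WT DP and 2.29 in young DP (log2 3.01, adjusted p = 0.000927). Unc93b1, which carries toll-like receptors to endosomes, averaged 21.7 ± 8.66, 3.18 ± 1.34 and 2.04 ± 0.377 CPM in the same groups (log2 3.42, adjusted p = 2.8e-05). H2-K1, H2-Aa, Cd74 and Unc93b1 were also called in KO DP over WT DP, with adjusted p-values of 0.00052, 0.000303, 0.000215 and 0.000543.

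Markers of cells that a DP sort should not hold moved with the knockout label. Of 20 B cell markers tested, 10 passed the filter on low counts without the KO DP libraries, and the other 10 passed it only with them, that is through the group where they were high, and are not counted. All 10 that passed without KO DP were called higher, against 7.05% higher and 6.17% lower among the 12905 genes that passed in this way, with a median log2 change of 3.11 against 0.02. Cd79a, a signalling chain of the B cell receptor that passed without KO DP, averaged 22.8 ± 6.25 CPM in KO DP, 1.67 ± 0.744 in WT DP and 1.53 ± 0.454 in young DP. Pax5, a transcription factor of the B lineage that passed only with KO DP, averaged 16.7 ± 6.34, 0.856 ± 1.34 and 0.672 ± 0.252 CPM. Of the members of the other lists that passed without KO DP, 3 of 8 plasma cell markers, 7 of 10 dendritic cell markers, 2 of 4 macrophage markers and 2 of 6 NK and innate lymphoid markers were higher and none was lower. The dendritic calls were the class II genes H2-Aa, H2-Eb1, H2-Ab1, Cd74 and Ciita given above, with Irf8 and Bst2, which is also on the interferon list. Itgax, Zbtb46, Xcr1, Clec9a and Batf3 of the dendritic list were too low to be tested. Flt3 and Siglech were tested and not called (edgeR adjusted p = 0.443 and 0.0758). Of 11 granulocyte markers 4 were tested, all of which passed the filter only with the KO DP libraries, so no count is given. Of these, Ngp, a neutrophil granule protein gene, averaged 7.45 ± 3.36 CPM in KO DP, 1.05 ± 0.857 in WT DP and 0.462 ± 0.333 in young DP. Gzmb, a cytotoxic granule protease that also passed only with KO DP, averaged 4.85 ± 1.84, 0.169 ± 0.11 and 0.0955 ± 0.0996 CPM. Csf1r, the macrophage growth factor receptor, averaged 7.43 ± 3.52, 0.792 ± 0.401 and 0.618 ± 0.313 CPM. Of the gamma delta and innate-like T cell markers, 2 of the 6 that passed without KO DP were higher and 1 was lower. The lower one, Il17re, an interleukin-17 receptor chain, stood at 13.6, 8.18, 14.98, 10.8 and 9.61 CPM in KO DP, at 29.3, 25.3, 19.7, 16.1 and 18.7 CPM in WT DP and at 19.9, 25.4, 22.8, 24.4 and 27.9 CPM in young DP. Every KO DP library was below all controls (log2 KO over young -1.06, adjusted p = 0.0031, but 0.27 with all 35 libraries in the fit; KO over WT -0.93, adjusted p = 0.0446). The 3 erythroid and platelet markers tested had adjusted p-values of 0.186, 0.287 and 0.896, though DESeq2 called 2 of that list higher.

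Summed over each whole list, the markers of some cell types stood higher in every KO DP library than in any young DP library. B cell markers summed to 1021 to 1311 CPM in KO DP, 607 to 737 in WT DP and 476 to 655 in young DP. Plasma cell markers summed to 316 to 740 CPM in KO DP, 174 to 200.05 in WT DP and 169 to 199 in young DP. Granulocyte markers summed to 14.5 to 52.2 CPM in KO DP, 1.64 to 9.48 in WT DP and 0.932 to 3.19 in young DP, and 3 of the 11 had no count in any young DP library. For these lists and the macrophage, NK and gamma delta lists, KO DP did not overlap young DP (exact permutation p = 0.00794 for each, 2-sided, the smallest that groups of 5 can give, adjusted p = 0.0119 over 9 lists). Most of the B cell sum was Ighm, with a mean of 745 CPM in KO DP, 608 in WT DP and 518 in young DP. The dendritic cell sum, 1148 to 1850 CPM in KO DP, 1151 to 1306 in WT DP and 981 to 1496 in young DP, did not part the groups (exact permutation p = 0.444), and its main term was the chemokine receptor gene Ccr9, which thymocytes also express. The erythroid sum overlapped too (exact permutation p = 0.556), and the thymic stroma sum did so at p = 0.0556 in the same exact test, or 0.0159 without TMM scaling. Which cells the RNA came from was not tested.

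**Figure D1:**
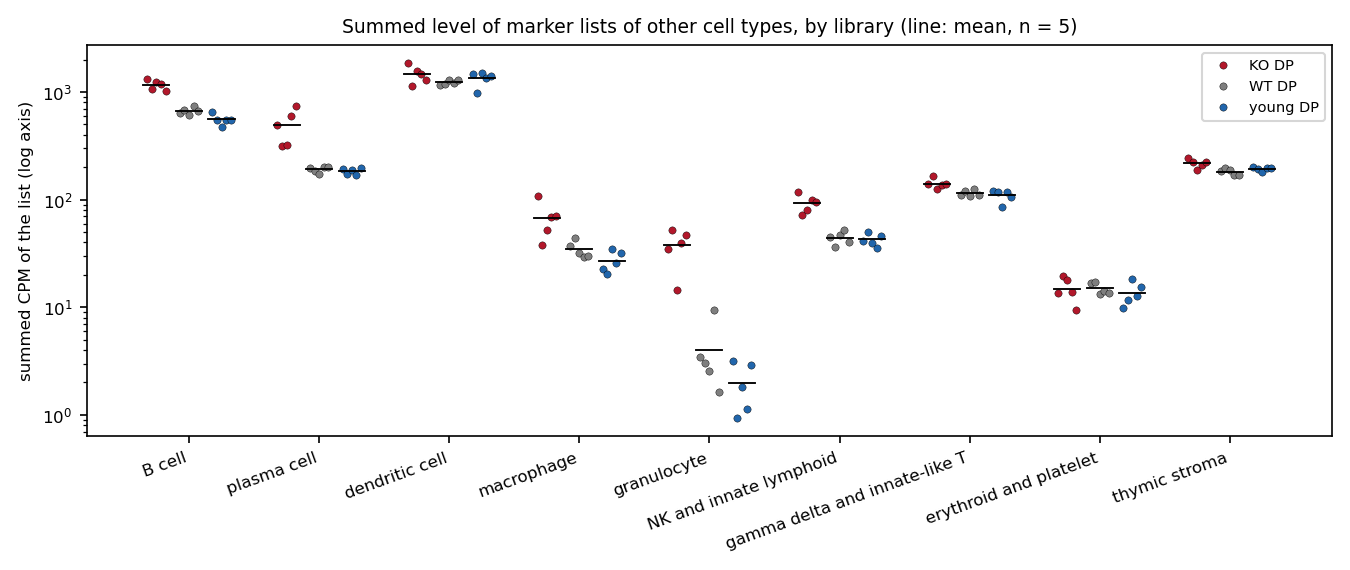
Summed level of marker lists of other cell types in each library, in CPM on a log axis, for KO DP, WT DP and young DP (points: libraries; line: mean, n = 5). The B cell, plasma cell, macrophage, granulocyte, NK and gamma delta sums of the KO DP libraries stand above all young DP libraries, with granulocyte means of 37.6, 4.04 and 1.99 CPM in KO DP, WT DP and young DP. The dendritic cell and erythroid sums overlap.

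Class I antigen presentation genes were higher in KO DP cells. Of 13 genes of the class I pathway tested, 9 were called higher and 0 lower, with a median log2 change of 0.69. Over all genes tested, 7.59% were higher and 6.02% lower, with a median log2 change of 0.03. H2-K1, a class I heavy chain, stood at 498, 386, 250, 297 and 180 CPM in KO DP, at 83.2, 67.0, 78.0, 90.9 and 79.5 CPM in WT DP and at 56.3, 54.9, 65.5, 57.9 and 60.0 CPM in young DP (log2 2.46, SE 0.22, adjusted p = 7.15e-05). The KO DP libraries stood above all controls, and WT DP stood above young DP by a smaller step (log2 0.44, adjusted p = 0.0385). B2m, the light chain of class I molecules, averaged 349 CPM in KO DP, 182 in WT DP and 165 in young DP (log2 1.09, adjusted p = 0.000602). Psmb9, an immunoproteasome subunit, averaged 79.4 ± 13.6, 52.2 ± 9.12 and 37.2 ± 1.67 CPM (log2 1.10, adjusted p = 0.000241). The peptide transporter genes Tap1 and Tap2 rose by log2 0.69 and 0.65, and Nlrc5, the activator of class I genes, by log2 1.92. The chaperone genes Calr and Pdia3 had log2 changes of -0.16 and -0.18 and were not called. All class I genes named here are also expressed by B cells and other leukocytes, whose markers moved with the same libraries as given above, and their part in the result was not tested.

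Interferon-induced genes were higher too. Of 43 tested, 21 were called higher and 0 lower, the median log2 change was 1.01, and 42 had a change above 0. Among all genes tested, 7.59% were higher and 6.02% lower. Irf1, a transcription factor of the interferon response, stood at 151, 121, 87.9, 106 and 90.0 CPM in KO DP, at 53.01, 53.5, 55.9, 61.4 and 60.5 CPM in WT DP and at 44.0, 46.8, 39.5, 41.9 and 43.0 CPM in young DP. The 3 groups did not overlap and stood in that order (log2 KO over young 1.38, SE 0.14, adjusted p = 0.000169; WT over young 0.40, adjusted p = 0.0385). Ly6a, the surface protein Sca-1, averaged 14.1 ± 4.69 CPM in KO DP, 1.79 ± 0.56 in WT DP and 1.13 ± 0.335 in young DP (log2 3.64, adjusted p = 5.02e-05). Irf7, the amplifier of type I interferon production, averaged 28.8 CPM in KO DP, 10.0 in WT DP and 8.76 in young DP (log2 1.73, adjusted p = 0.000675), and the antiviral Samhd1 38.5, 5.14 and 7.12 CPM (log2 2.44, adjusted p = 0.00062). Ifit2, another interferon-induced gene, averaged 49.7, 57.02 and 60.3 CPM and was not called (adjusted p = 0.221), and Rsad2, Mx1 and Mx2 were low and not called. The count was 34 without KO DP 2, 12 when young DP 1 was left out and 13 when young DP 2 or 4 was. Against WT DP, 8 of the 43 were called higher and 0 lower, where 1.48% of all genes were higher and 0.113% lower. Markers of other cell types moved with the same libraries as given above, and their part in these rises was not tested.

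The promoters of interferon-induced genes often carry the response element that STAT and IRF factors bind, here searched as GAAA, any pair of bases (NN) and GAAA again, on both strands, with overlapping copies counted. A RefSeq promoter (GRCm38.p6, 250 bases before to 50 after the start) was found for 17 of the 21 interferon genes called higher, and 9 of these held the motif (52.9%). It was held by 9 of 14 interferon genes that were not called (64.3%), by 3.99% of all 27025 promoters, by 7.65% of those of all genes called higher and by 2.19% of those of all genes called lower. The share was thus no greater in the called interferon genes than in the others of the list. The 5 called genes with at least 2 copies before the start are shown to let the spacing be read, chosen after their values were seen. Each stretch is 100 bases, 5′ to 3′ on the gene's strand, with the motif copies in capitals.
Isg15, chr4:156200819-156200918, minus strand: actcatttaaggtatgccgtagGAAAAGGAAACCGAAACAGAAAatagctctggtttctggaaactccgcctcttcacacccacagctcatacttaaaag
Ddx60, chr8:61927987-61928086, plus strand: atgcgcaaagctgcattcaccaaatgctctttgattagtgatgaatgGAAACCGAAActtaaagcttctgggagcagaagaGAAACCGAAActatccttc
Bst2, chr8:71537527-71537626, minus strand: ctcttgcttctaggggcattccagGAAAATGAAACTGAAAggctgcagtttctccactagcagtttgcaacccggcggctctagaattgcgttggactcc
Gbp3, chr3:142559944-142560043, plus strand: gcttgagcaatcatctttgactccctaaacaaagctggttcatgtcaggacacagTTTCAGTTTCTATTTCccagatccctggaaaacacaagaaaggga
Irgm1, chr11:48871421-48871520, minus strand: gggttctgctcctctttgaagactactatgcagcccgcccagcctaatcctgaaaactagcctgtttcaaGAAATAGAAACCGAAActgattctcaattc
In Isg15, Bst2, Gbp3 and Irgm1 the copies overlap, and in Ddx60 they lie apart. Isg15 encodes a ubiquitin-like modifier, Ddx60 a helicase of antiviral defence, Bst2 the virus-tethering protein tetherin, and Gbp3 and Irgm1 interferon-induced GTPases. Bst2 averaged 49.8 CPM in KO DP, 30.4 in WT DP and 22.1 in young DP, and Irgm1 46.0, 20.2 and 19.6 CPM, with log2 changes over young DP of 1.18 and 1.24. Isg15, Ddx60 and Gbp3 changed by log2 1.35, 1.57 and 1.25.

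Genes of the stages around the DP stage moved in both directions. Of 20 genes tested from the list drawn up for the DP stage, 5 were called lower and 1 higher, with a median log2 change of -0.11. Of all genes tested 6.02% were lower and 7.59% higher, and of those over 100 CPM 16.2% were lower and 5.34% higher. The 1 rise was Ptcra, the pre-T cell receptor alpha chain, which averaged 55.5 ± 22.5 CPM in KO DP, 31.5 ± 5.2 in WT DP and 26.9 ± 4.66 in young DP (log2 1.06, adjusted p = 0.0122). KO DP 2 was highest at 93.8 CPM, and the other KO libraries stood at 35.8 to 56.0 CPM. Rag1, a subunit of the recombinase, stood at 5286, 1941, 3789, 3785 and 4905 CPM in KO DP, at 6262, 6815, 5609, 4953 and 7215 CPM in WT DP and at 8666, 7670, 9171, 9277 and 10102 CPM in young DP. The KO and young groups did not overlap, the WT group lay between with 1 library inside the KO range, and the lowest value was KO DP 2 (log2 KO over young -1.18, SE 0.21, adjusted p = 0.00415; WT over young -0.54, adjusted p = 0.0385). Rag2, the other subunit, stood at 269, 202, 268, 249 and 259 CPM in KO DP, at 317, 290, 306, 327 and 340 CPM in WT DP and at 375, 379, 361, 335 and 362 CPM in young DP. Every KO DP library was below all controls (log2 -0.53, SE 0.09, adjusted p = 0.00407), but with all 35 libraries in the fit the adjusted p was 0.169. Themis, a regulator of positive selection, fell by log2 0.55 and Ets2 by log2 0.53. Cd8a averaged 2165.7 ± 100.1 CPM in KO DP, 2438 ± 120 in WT DP and 2635 ± 136 in young DP (log2 -0.27, adjusted p = 0.0311), and lost its call when any 1 of 8 of the 10 libraries was left out. The DP stage genes called lower numbered 7 without KO DP 2 and 3 without KO DP 4 or any one of the young DP libraries.

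The DN stage precedes the DP stage, and its genes moved in both directions. Of 15 tested, 11 passed the filter on low counts without the KO DP libraries, and of these 4 were called higher and 2 lower, with a median log2 change of 0.44. Among all 12905 genes that passed in this way, 7.05% were higher and 6.17% lower. The other 4 DN genes tested passed only with KO DP and are not counted. Dtx1, a Notch target, stood at 91.9, 67.0, 24.98, 65.1 and 88.6 CPM in KO DP, at 19.7, 14.1, 12.5, 18.97 and 22.7 CPM in WT DP and at 22.4, 17.2, 24.2, 15.3 and 18.1 CPM in young DP. The lowest KO library, KO DP 3, was just above the highest controls (log2 1.80, SE 0.29, adjusted p = 0.00227). Il2ra, the CD25 chain of the IL-2 receptor, stood at 57.6, 29.6, 11.4, 48.2 and 72.1 CPM in KO DP, at 13.9, 8.58, 10.6, 15.9 and 14.0 CPM in WT DP and at 12.8, 8.86, 20.01, 10.3 and 18.8 CPM in young DP. KO DP 3 lay within the control range and the other 4 KO libraries above it (log2 1.63, adjusted p = 0.0208, and 0.0615 without young DP 4). Notch3 averaged 241 CPM in KO DP, 106 in WT DP and 112 in young DP (log2 1.10, adjusted p = 0.0347). Lmo2, Bcl11a and Mef2c, which rose by log2 4.74, 3.73 and 3.63, are also expressed in B cells or myeloid cells. Of these, at least Lmo2 passed the filter only with KO DP. Bcl11a and Mef2c were low in the controls too, with means of 0.701 and 0.876 CPM in WT DP and 0.322 and 0.609 in young DP. These rises are therefore descriptive. Kit, the stem cell factor receptor of the earliest DN cells, went the other way, at 2.04 ± 1.17 CPM in KO DP, 3.48 ± 0.632 in WT DP and 6.33 ± 1.2 in young DP (log2 -1.62, adjusted p = 0.0234, but 0.114 with the Xist covariate). Without young DP 2, 3, 4 or 5 in turn, 4, 5, 4 and 5 of all DN genes tested were called higher and 2, 1, 0 and 1 lower, against 7 and 2 with all libraries.

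Of 22 genes of selection and the single positive stages, 7 were called higher and 0 lower, with a median log2 change of 0.40. Over all genes tested, 7.59% were higher and 6.02% lower. Klf2, which drives thymic exit, stood at 15.1, 22.6, 13.1, 13.2 and 15.5 CPM in KO DP, at 7.42, 5.75, 5.69, 6.62 and 6.79 CPM in WT DP and at 6.86, 6.91, 5.2, 6.22 and 7.67 CPM in young DP. The KO libraries stood above all controls, KO DP 2 highest (log2 1.28, SE 0.19, adjusted p = 0.00182, but 0.105 with all 35 libraries in the fit). S1pr1, the exit receptor, averaged 8.57 CPM in KO DP, 2.28 in WT DP and 2.04 in young DP (log2 2.07, adjusted p = 0.013), and Ccr7, the receptor that leads cells to the medulla, 21.5, 10.3 and 10.3 CPM (log2 1.07, adjusted p = 0.0239). Ms4a4b, a membrane protein of maturing T cells, averaged 22.7 ± 6 CPM in KO DP, 7.26 ± 2.28 in WT DP and 6.35 ± 1.76 in young DP (log2 1.84, adjusted p = 0.00062). Cd69 and Zbtb7b, the factor of the CD4 lineage, had log2 changes of 0.44 and -0.09 and were not called. The count was 12 without KO DP 2, 4 without young DP 1, 2 or 4, and 1 with all 35 libraries in the fit. Gimap3 and Gimap4, GTPases of lymphocyte survival, averaged 43.0 ± 12.3 and 37.1 ± 13.2 CPM in KO DP, 12.7 ± 1.44 and 11.9 ± 2 in WT DP, and 13.5 ± 3 and 13.6 ± 5.5 in young DP, and 3 of 8 Gimap genes were called higher. Genes induced through the T cell receptor gave 3 rises and 0 falls among the 19 that passed the filter on low counts without KO DP (median log2 0.41). Among all 12905 genes that passed in this way, 7.05% were higher and 6.17% lower. Over all 20 tested there were 4 rises, and 2 without young DP 1, 2 or 4. Gadd45b rose by log2 1.698 and Cd83, which passed only with KO DP, by log2 4.34, while Nr4a1 and Egr1 had log2 changes of 0.71 and -0.00 and adjusted p-values of 0.0532 and 0.998. Cd83 is also a marker of dendritic and B cells. The part of other cell types, whose markers moved with the same libraries as given above, was not tested for the genes of these lists.

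**Figure D2:**
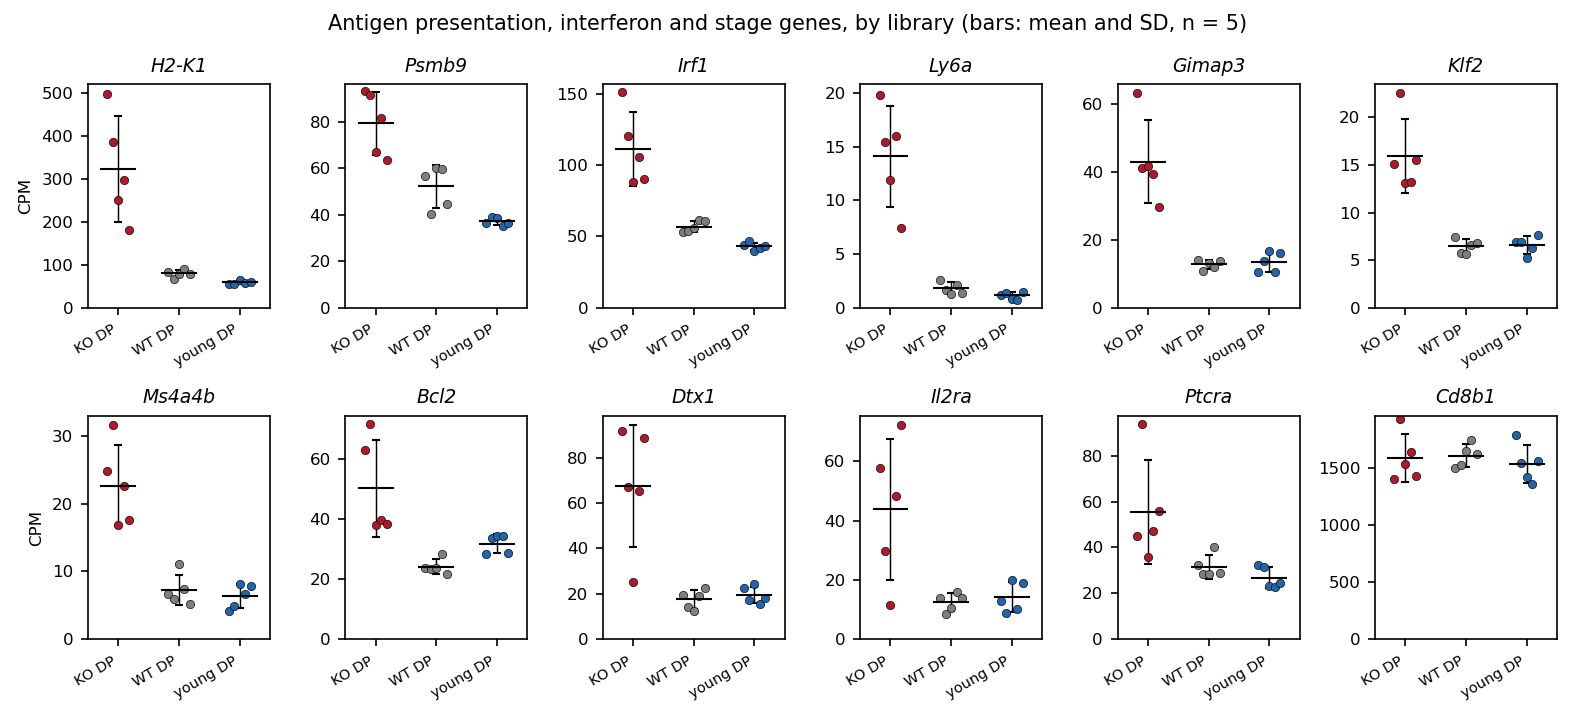
Levels in CPM of 12 genes of antigen presentation, interferon response and thymocyte stages in each library of KO DP, WT DP and young DP (points: libraries; bars: mean and SD, n = 5). H2-K1, Irf1, Gimap3, Klf2 and Ms4a4b of the KO DP libraries stand above all controls, KO DP 3 lies within the control range for Il2ra, and Cd8b1 overlaps in all groups.

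The falls were smaller but tight. Pde3b, which breaks down cyclic nucleotides, stood at 48.1, 41.5, 40.7, 34.0 and 47.1 CPM in KO DP, at 63.6, 62.7, 57.01, 62.9 and 61.0 CPM in WT DP and at 83.8, 87.1, 81.8, 84.3 and 87.3 CPM in young DP. The groups stood in 3 separate bands (log2 KO over young -0.996, SE 0.11, adjusted p = 0.000191; KO over WT -0.54, adjusted p = 0.0277; WT over young -0.47, adjusted p = 0.00672). Lonrf1, a ubiquitin ligase family gene, stood at 21.4, 20.2, 25.6, 23.04 and 25.4 CPM in KO DP, at 42.8, 43.1, 28.4, 38.9 and 41.1 CPM in WT DP and at 43.6, 46.8, 40.0, 49.5 and 45.2 CPM in young DP. Both control groups lay above all KO libraries, WT DP 3 closest to them (log2 -0.95, adjusted p = 0.000414; KO over WT -0.75, adjusted p = 0.0157). Neto2, an auxiliary subunit of kainate receptors in neurons, averaged 18.04 ± 2.36 CPM in KO DP, 28.7 ± 4.12 in WT DP and 39.6 ± 3.94 in young DP (log2 -1.12, adjusted p = 0.000286). Ctnna1, the adhesion protein alpha-catenin, averaged 30.9 ± 2.08, 43.5 ± 3.11 and 54.0 ± 5.75 CPM (log2 -0.80, adjusted p = 0.000874). Atrnl1, an attractin-like membrane protein gene, averaged 16.6 ± 5.06, 33.5 ± 5.17 and 42.3 ± 2.95 CPM (log2 -1.34, adjusted p = 0.00175), and Fnbp1l, which bends membranes, 3.79 ± 1.59, 10.8 ± 1.68 and 13.1 ± 2.33 CPM (log2 -1.77, adjusted p = 0.00386). Pde3b, Lonrf1, Neto2, Ctnna1, Atrnl1 and Fnbp1l were also called in KO DP against WT DP, the last 4 with adjusted p-values of 0.0306, 0.0306, 0.0273 and 0.0269. Sipa1l2, a Rap GTPase regulator, averaged 14.1 ± 0.819 CPM in KO DP, 20.8 ± 3.17 in WT DP and 26.6 ± 1.17 in young DP (log2 -0.91, adjusted p = 0.000534), with KO over WT at an adjusted p of 0.085.

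For other falls WT DP was low as well. Igf2bp3, an RNA-binding protein that reads m6A and is best known from fetal cells, stood at 3.92, 2.63, 0.892, 4.35 and 4.67 CPM in KO DP, at 4.18, 4.33, 4.75, 2.65 and 4.06 CPM in WT DP and at 27.6, 29.8, 25.1, 23.7 and 26.3 CPM in young DP. KO and WT DP overlapped (log2 -0.28, adjusted p = 0.781) and both lay far below young DP (log2 -3.00, SE 0.32, adjusted p = 0.00021 for KO, and -2.72, adjusted p = 7.49e-08 for WT). It was the largest fall in KO over young DP by the rule for named genes. Cdc42bpa, a kinase that acts with CDC42, averaged 2.49 ± 1.47 CPM in KO DP, 5.88 ± 1.08 in WT DP and 18.9 ± 2.28 in young DP (log2 -2.90, adjusted p = 0.00462; WT over young -1.68, adjusted p = 4.16e-05). Hspg2, the matrix proteoglycan perlecan, averaged 6.34 ± 4.15, 15.4 ± 7.36 and 47.1 ± 13.9 CPM, with WT DP below young DP too (log2 -1.61, adjusted p = 0.0189). Slc5a3, a myo-inositol transporter, and Myo10, an unconventional myosin, fell by log2 1.24 and 1.09 in KO DP, and their WT over young changes were -0.76 and -0.67 with adjusted p-values of 0.00844 and 0.0385. St8sia1, the GD3 ganglioside synthase, averaged 147 ± 24.8 CPM in KO DP, 203 ± 35.4 in WT DP and 301 ± 30.8 in young DP (log2 -1.02, adjusted p = 0.00051). Genotype at Mettl3, the Cre transgene and the origin of the mice cannot be told apart where KO and WT DP both differ from young DP.

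Further falls rest on wider spreads. Igf1r, the IGF-1 receptor, averaged 11.2 ± 3.57 CPM in KO DP, 24.7 ± 7.3 in WT DP and 39.6 ± 13.6 in young DP (log2 -1.81, adjusted p = 0.0018). Cacna1e, a calcium channel subunit, stood at 58.4, 65.7, 89.4, 53.1 and 16.8 CPM in KO DP, at 446, 205, 118, 89.7 and 129 CPM in WT DP and at 129, 153, 199, 242 and 264 CPM in young DP. All KO libraries lay below the controls, with the top KO value next to the lowest WT value (log2 -1.79, adjusted p = 0.006, but 0.0556 with the length correction). Fbln1, a matrix protein gene, averaged 1.99 ± 0.791, 4.47 ± 1.49 and 8.7 ± 2.73 CPM (log2 -2.12, adjusted p = 0.00227). Wscd1 fell by log2 2.08, and its call was lost when any 1 of 8 of the 10 libraries was left out.

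**Figure D3:**
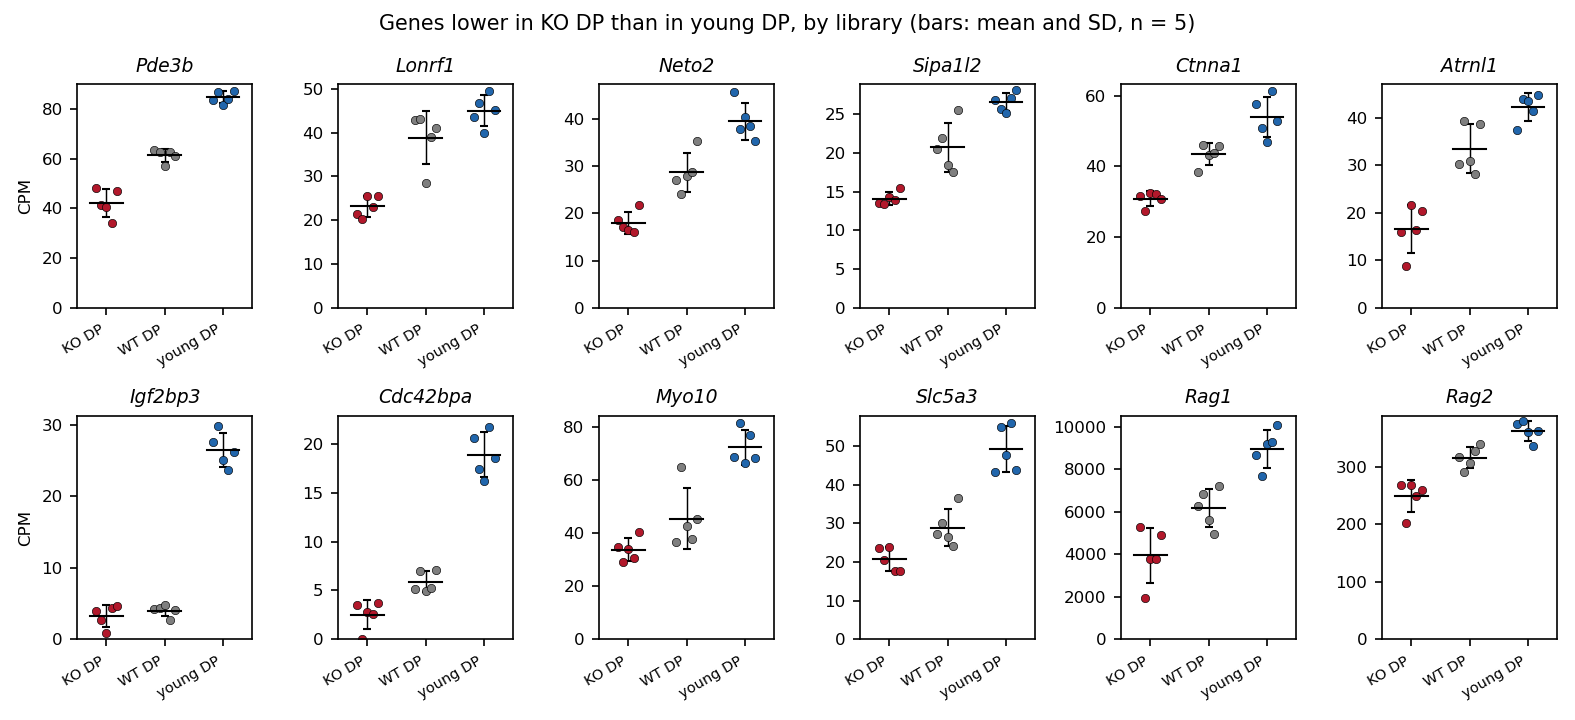
Levels in CPM of 12 genes that were lower in KO DP than in young DP, in each library of KO DP, WT DP and young DP (points: libraries; bars: mean and SD, n = 5). For Pde3b, Lonrf1, Neto2, Sipa1l2, Ctnna1 and Atrnl1 all KO DP libraries lie below all controls, while for Igf2bp3 the WT DP mean of 3.99 CPM lies beside the KO DP mean of 3.29 CPM.

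Several genes of the m6A machinery fell in KO DP, though Mettl3 itself was not called (log2 -0.00). Of 10 writer genes tested, 4 were called lower and 0 higher (median log2 -0.36), and 2 were called without young DP 2 or young DP 4. Of all genes tested 6.02% were lower, of those at 20 to 100 CPM 6.29% and of those over 100 CPM 16.2%. Of genes of 6 to 8 kb, the length of Rbm15 and Rbm15b, 11.4% were lower. Rbm15 and Rbm15b, which bring the writer to its targets, averaged 56.1 ± 10.7 and 128 ± 11.5 CPM in KO DP, 78.6 ± 7.65 and 154 ± 14.4 in WT DP, and 86.0 ± 6.35 and 181 ± 9.64 in young DP (log2 -0.61 and -0.49, adjusted p = 0.0114 and 0.00471). The complex members Zc3h13 and Cbll1 fell by log2 0.42 and 0.53. Mettl14 averaged 57.6 CPM in KO DP, 59.3 in WT DP and 60.9 in young DP and was not called (adjusted p = 0.776). Of 14 erasers and readers, 4 were lower and 0 higher (median log2 -0.32), and 7 were lower without KO DP 2. Alkbh5, the eraser, averaged 125 CPM in KO DP, 165 in WT DP and 210 in young DP (log2 -0.74, adjusted p = 0.00227), and Elavl1, which binds and stabilises transcripts, 101 ± 10.4, 125 ± 15.5 and 159 ± 15.2 CPM (log2 -0.64, adjusted p = 0.00227). Fto, the other eraser, had a log2 change of -0.39 and an adjusted p of 0.0512, and Ythdf1 and Ythdf3 were not called. In KO over WT DP 0 members of either list were called. The medians of the 2 lists were -0.25 and -0.26 there, and the adjusted p-values of Rbm15, Rbm15b and Elavl1 were 0.106, 0.267 and 0.244.

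Few genes of cell death were called, where 7.59% of all genes tested were higher and 6.02% lower. Bcl2, which blocks apoptosis, stood at 62.9, 71.8, 38.0, 39.7 and 38.4 CPM in KO DP, at 23.6, 23.5, 23.5, 28.5 and 21.5 CPM in WT DP and at 28.3, 33.6, 34.3, 34.2 and 28.7 CPM in young DP. All KO libraries lay above all controls, KO DP 1 and 2 farthest (log2 0.66, adjusted p = 0.0352, and 0.0886 without young DP 1; KO over WT 1.06, adjusted p = 0.0144). Bcl2l2, another survival member, averaged 16.8 ± 5.38 CPM in KO DP, 7.84 ± 2.28 in WT DP and 6.92 ± 1.01 in young DP (log2 1.28, adjusted p = 0.00616). Of 13 BCL2 family genes 2 were higher and 0 lower, 1 without any one of the young DP libraries, and the death inducer Bcl2l11 had a log2 change of -0.22 (adjusted p = 0.209). Of 18 p53 targets 2 were lower, Zmat3 and Ccng1, by log2 0.54 and 0.47. Of the cytokine signalling inhibitors, Cish and Socs3 rose by log2 2.44 and 0.68, and Socs4 and Socs7 fell by log2 0.52 and 0.63. Cish passed the filter on low counts only with the KO DP libraries, where it was high, so its rise is descriptive. Of the p53 and cytokine inhibitor genes named, each but Socs4 lost its call without at least 1 library: Zmat3 without 1, Ccng1 without 7, Cish and Socs7 without 4 each and Socs3 without 6 of the 10.

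Ferroptosis is death by iron-dependent lipid peroxidation. Of 22 genes that suppress it 2 were higher and 0 lower (median log2 -0.04), of 18 that drive it 2 were higher and 2 lower (median -0.00), and of 19 of iron handling 2 were higher (median 0.01), shares close to those over all genes. Gpx4, the peroxidase that clears lipid peroxides, stood at 69.6, 183, 95.0, 84.2 and 66.0 CPM in KO DP, at 75.6, 63.2, 80.6, 92.9 and 70.7 CPM in WT DP and at 76.5, 71.0, 62.8, 61.4 and 58.9 CPM in young DP. Only KO DP 2 stood out (log2 0.60, SE 0.24, adjusted p = 0.117, but 0.0252 with all 35 libraries in the fit). Slc7a11, the cystine importer, averaged 187 ± 48.3 CPM in KO DP, 251.8 ± 60.7 in WT DP and 235 ± 40.1 in young DP (log2 -0.32, adjusted p = 0.225). Acsl4, which loads polyunsaturated fats into membranes, and Tfrc, the transferrin receptor, had log2 changes of -0.08 and 0.08. The calls were Scd1 and Coq2 among suppressors, Cybb and Cyb5r1 higher and Far1 and Agps lower among drivers. Agps and Cyb5r1 lost their calls without 6 and 5 of the 10 libraries in turn, and the iron genes Slc25a28 and Iscu, which rose by log2 0.52 and 0.53, without 6 each. Scd1, a fatty acid desaturase, stood at 62.4, 0, 15.9, 25.4 and 19.2 CPM in KO DP, at 0.468 to 3.04 CPM in WT DP and at 0.404 to 1.62 CPM in young DP (log2 4.97, adjusted p = 0.00713), with no count in KO DP 2. Cybb, the phagocyte oxidase, is expressed in macrophages, granulocytes and B cells.

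Of 34 S phase genes 4 were lower and 0 higher (11.8% lower, median log2 -0.10), and of 30 genes of G2 and mitosis 4 were lower and 0 higher (13.3% lower, median -0.21), where 6.02% of all genes and 16.2% of those over 100 CPM were lower. Mki67, a marker of cycling cells, averaged 1035 ± 165 CPM in KO DP, 1234 ± 180 in WT DP and 1526 ± 221 in young DP (log2 -0.55, adjusted p = 0.0184, but 0.256 with the length correction). Pola1, a DNA polymerase subunit, fell by log2 0.77 and Uhrf1, which maintains DNA methylation, by log2 0.52. The S phase count was 2 without KO DP 1, KO DP 3 or young DP 2, 1 without young DP 4 and 9 without KO DP 5. The mitosis count was 2 without KO DP 1, 3 or 4 or young DP 1 or 2, 0 without young DP 4, 7 without KO DP 5 and 0 with all 35 libraries in the fit. Cdk6, which drives entry into S phase, averaged 3.55 ± 1.16 CPM in KO DP, 6.5 ± 1.48 in WT DP and 8.81 ± 2.11 in young DP (log2 -1.30, adjusted p = 0.0122).

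Metabolic lists gave few calls, where 7.59% of all genes tested were higher and 6.02% lower. Of 46 genes of cytosolic ribosomal proteins, 45 had a change above 0 (median log2 0.30) but only Rps7 and Rpl11 were called, and neither was with the length correction. Glycolysis gave 1 rise of 17, Pfkfb4 (log2 1.10), and oxidative phosphorylation 2 falls of 32, Atp5b and Sdha (log2 -0.35 and -0.31), both lost without several libraries in turn. Ribosomal calls numbered 8 without KO DP 1, 5 without young DP 1 and 0 without KO DP 3, KO DP 4 or young DP 2, 3, 4 or 5. The falls in oxidative phosphorylation numbered 0 without KO DP 1, KO DP 4, young DP 2 or young DP 3, and 1 without KO DP 3 or young DP 1, 4 or 5. Of 24 genes of cholesterol synthesis, Pmvk and Mvk rose by log2 0.80 and 0.93. Immediate early and heat shock genes, which respond to handling of cells, gave 4 rises and 2 falls of 14, or 3 and 1 without young DP 4. Junb averaged 120 ± 50.8 CPM in KO DP, 87.4 ± 22.8 in WT DP and 53.5 ± 13.9 in young DP (log2 1.17, adjusted p = 0.0108), with the top value of 209.7 CPM in KO DP 2. Hsph1, a heat shock chaperone, averaged 41.5 ± 17.5, 70.0 ± 43.7 and 126 ± 45.7 CPM (log2 -1.60, adjusted p = 0.00436).

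**Figure D4:**
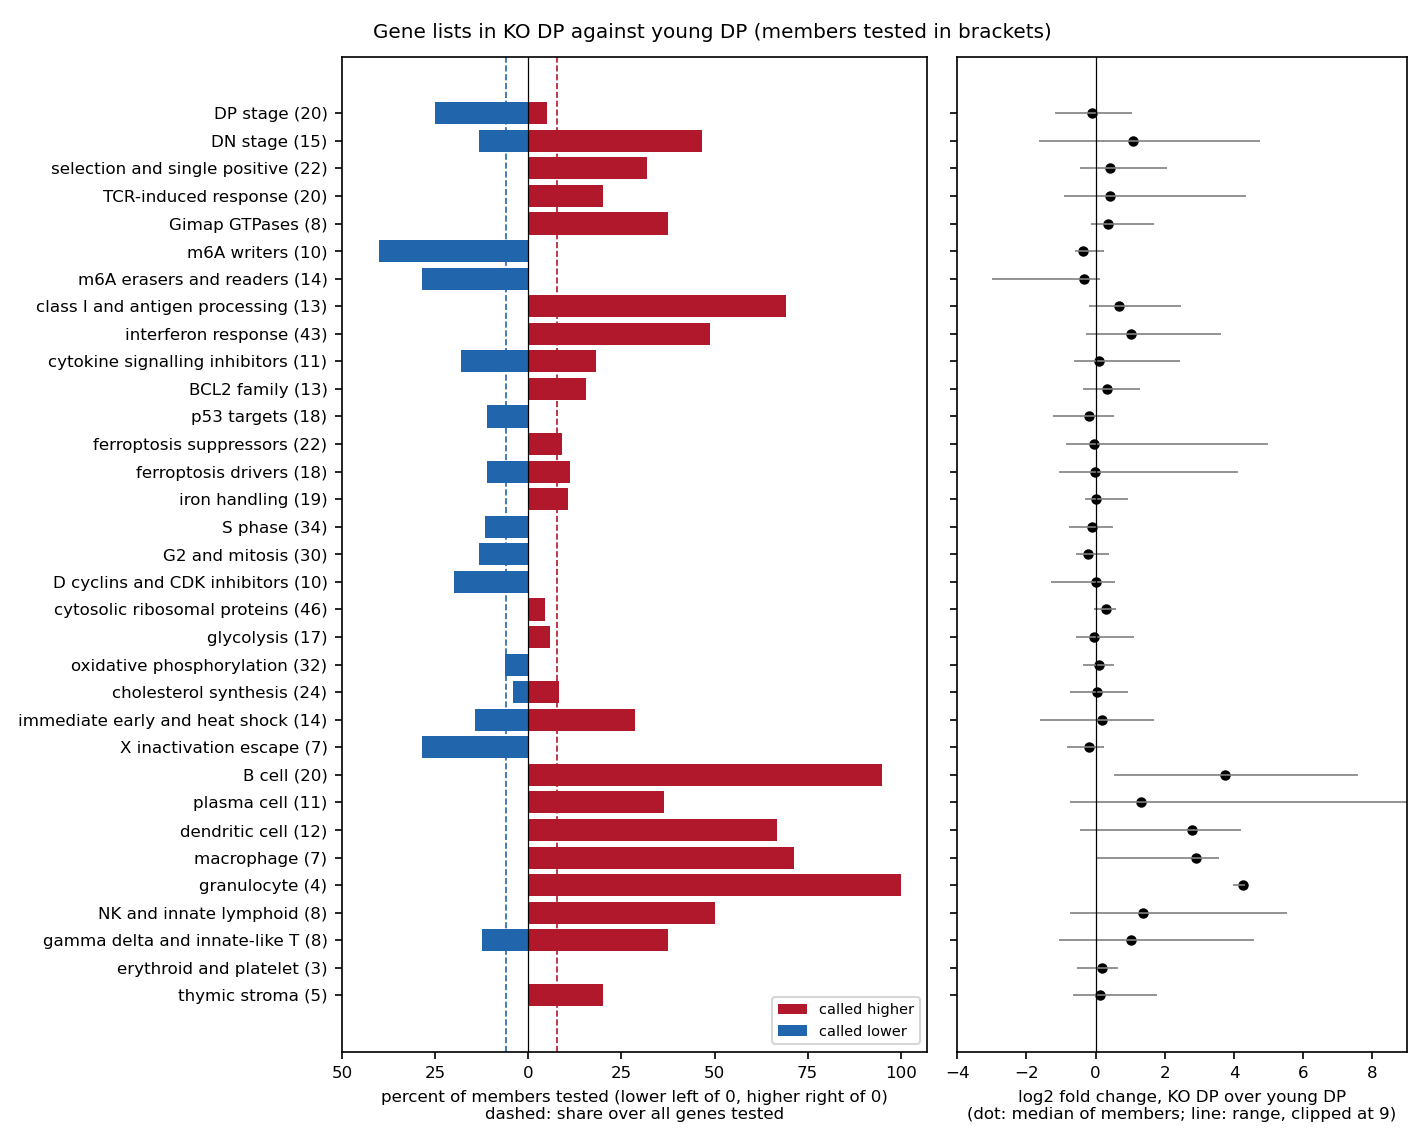
Gene lists in KO DP against young DP: left, percent of the members tested that were called higher (right of 0) or lower (left of 0), with the share over all genes tested, 7.59% higher and 6.02% lower, as dashed lines; right, median (dot) and range (line, clipped) of the log2 fold change of the members. Class I and interferon genes lie to the right, the m6A lists lie slightly left of 0, and most death and metabolism lists centre near 0. Part of the tested members of the lists of other cell types and of the DN list passed the filter on low counts only with KO DP libraries, so their shares are not read against the dashed lines.

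Gene length moved with the calls. The median gene length in the deposited table was 6742.5 bases for genes called lower, 3007 for genes called higher and 3388 for genes not called. Of genes under 1 kb, 4.88% were higher and 0.551% lower, and of genes over 8 kb, 3.05% were higher and 19.3% lower. The median log2 change of genes over 8 kb was -0.26 in KO over young DP, -0.16 in KO over WT DP and -0.12 in WT over young DP, and of genes of 1 to 2 kb 0.23, 0.10 and 0.12. Genes over 6 kb took 40.4, 31.5, 37.2, 38.1 and 39.8% of the counts in KO DP, 41.2, 42.5, 39.1, 35.3 and 40.4% in WT DP and 39.6, 41.4, 43.6, 43.8 and 43.0% in young DP. KO DP 2 was the lowest, and 3 KO libraries lay below all young libraries (exact permutation p = 0.0238, 2-sided, KO against young). Without KO DP 2, 30.9% of genes over 8 kb were called lower and 7.23% higher. After each library's trend with gene length was removed, a step chosen after seeing the data, 1728 genes were called (983 higher and 745 lower), and of genes over 8 kb 146 were higher and 155 lower. Calls also varied with level: of genes over 100 CPM 16.2% were lower and 5.34% higher, and of genes at 1 to 5 CPM 0.398% were lower and 6.72% higher. The part of RNA quality in these patterns was not tested.

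**Figure D5:**
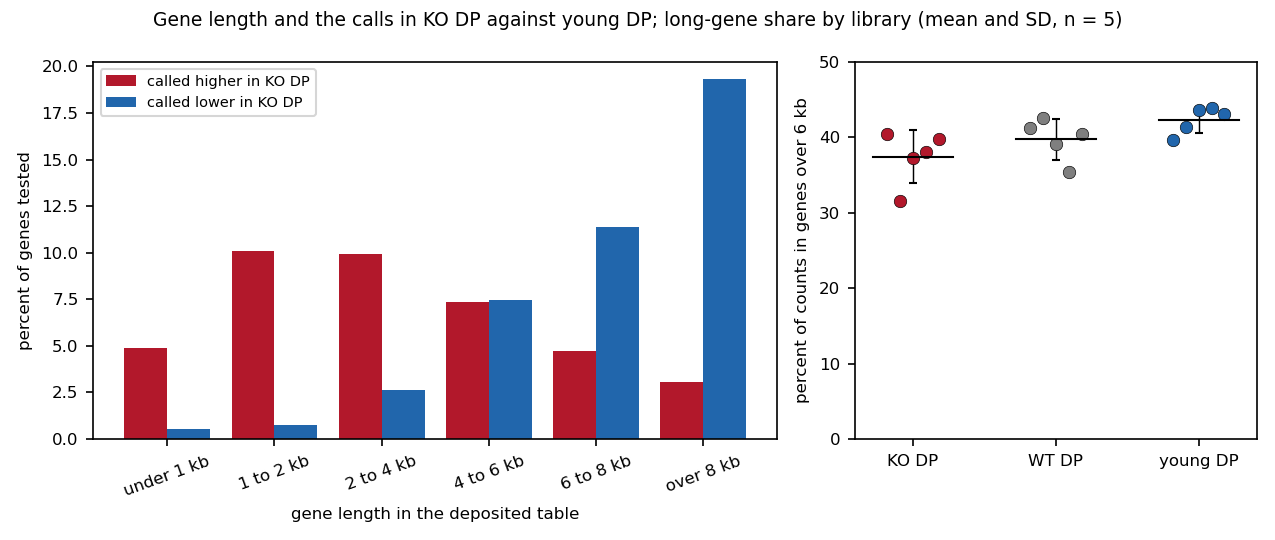
Left, percent of the genes tested that were called higher or lower in KO DP against young DP, by gene length in kb; right, percent of each library's counts in genes over 6 kb (points: libraries; bars: mean and SD, n = 5). The share called lower climbs from 0.551% under 1 kb to 19.3% over 8 kb, and the long-gene share averages 37.4% in KO DP, 39.7% in WT DP and 42.3% in young DP.

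Genes that escape X inactivation are read from both X chromosomes in females. Kdm5c, a histone demethylase of this kind, stood at 246, 140, 165, 180 and 177 CPM in KO DP, at 272, 299, 177, 141 and 216 CPM in WT DP and at 302, 339, 324, 313 and 343 CPM in young DP. All KO DP libraries lay below all young DP libraries (log2 -0.83, adjusted p = 0.00215). The libraries high in Xist were also the higher ones in KO and WT DP, apart from KO DP 2. Kdm6a, another demethylase, fell by log2 0.73 (adjusted p = 0.028), and its adjusted p was 0.175 with the Xist covariate. By chromosome the share of genes called ran from 10.9% on chromosome 6 to 16.9% on chromosome 17, which carries the class I and class II genes. Within 10 megabases of Mettl3 on chromosome 14, 20 of 215 genes were called (9.3%), 14 higher and 6 lower. Chromosome 14 had 11.6% of its genes called. Of all genes tested 13.6% were called, with 7.59% higher and 6.02% lower.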

How the data were processed

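Bulk RNA-seq counts of 15 DP thymocyte libraries were analysed, 5 per group. The authors' deposited table holds whole-number read counts per gene, not normalized, and a gene length. Per the submitters' processing notes, which give no roles, the tools were STAR 2.5.1, HTSeq 2.0.3, Subread, Trim Galore 0.4, bcl2fastq and DESeq2 and the builds GRCm39 and mm10; whether counting used strand is not given in the sources used here, so antisense and overlapping genes are uncertain. Gene identifiers are those of the C57BL/6NJ annotation, and 328 names came from the table's descriptions.

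Groups were compared with edgeR 4.0.16 (R 4.3.3): TMM, the filter on low counts (minimum count 10, minimum total 15) and 2-sided quasi-likelihood tests with only the compared groups in the fit, adjusted by Benjamini-Hochberg over all genes tested. Levels are CPM after TMM over the 15 libraries, as mean ± SD. DESeq2 1.42.0, RLE scaling, no filter, wider fits, an Xist covariate, a replicate block, a length correction and leaving out each library were alternatives. The procedure was tested on simulated data. Counting intervals and floors cover counting error only.

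Members and lists were chosen with earlier results of these data known. Genes were named by a rule: Mettl3, the largest and the most significant non-overlapping rises and falls with a mean of at least 5 CPM, up to 2 rises and 2 falls per list, and 13 set genes. List members outside the rule, such as Irf7, Tap1, Alkbh5 and S1pr1, and the promoters were chosen after their values were seen. Some genes that the rule or lists pick are not reported here.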

Additional observations from a re-analysis of the deposited data

Results flagged for a closer look

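Of 244 values of named genes and marker sums examined in groups of 5, 13 (5.33%) had 1 library far from the other 4, and chance flags about 1 in 20. KO DP 2 accounted for 5 of them. In KO DP 2, Mettl3 was high at 60.9 CPM, Klf2 at 22.6, Mvk at 27.9, Junb at 209.7 and Gpx4 at 183 CPM. In KO DP 1, Atp5b was low at 619 CPM. In young DP 3, Bank1 was high at 0.492 CPM, Coq2 at 23.9 and Scd1 at 1.62 CPM. In young DP 1, Rps7 was high at 473 CPM and Rpl11 at 525 CPM. In young DP 2, Kit was low at 4.2 CPM and the summed dendritic cell markers were low at 981 CPM.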

How the results depend on the processing

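The 1800 genes called in KO DP over young DP became 2768 with DESeq2, 1090 with the Xist covariate, and 870 to 3143 when single libraries were left out. RLE scaling gave 1851, no filter 1661, all 35 libraries 2562 and the length correction 1728. WT DP over young DP had 77 calls, but 149 with no filter, 392 with DESeq2, 4 with all 35 libraries and 23 to 98 without single libraries, and KO DP over WT DP had 211, but 605 with DESeq2 and 101 to 534 without single libraries. The comparison with both controls stayed between 1702 and 2615 without single libraries. Replicate numbers did not pair the samples: same-numbered KO and young libraries deviated with correlations of -0.25 to 0.06, and none matched its own number best. With a replicate block 771 genes were called for KO over young DP, 8 for WT over young and 61 for KO over WT. Direction turned only for genes that were not called: Mettl3 (log2 0.059 with the Xist covariate, 0.062 with the length correction, -0.069 to 0.026 without single libraries), Cd8b1 (-0.17 with the length correction, -0.027 to 0.10 without single libraries), Slc7a11 (0.0091 with the length correction), Acsl4 (-0.14 to 0.015 without single libraries) and Tfrc (-0.094 with the Xist covariate). The cause was not tested. Of 103 named genes called, 77 held without every library in turn. The call was lost by 26 under the block, 17 with the Xist covariate, 13 with all 35 libraries, 10 with the length correction and 0 with RLE scaling or DESeq2.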
